A study of Drosophila melanogaster with 3 samples.

Results

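The genes CG1677, kirre and sbb are long Drosophila genes that held many binding sites of the Hox protein Antp. They were chosen by the number of summits, the positions of highest signal within peaks, that fell in each gene's span plus 1 kb on either side. The list used for that choice came from the irreproducible discovery rate procedure (IDR), which compares how peaks rank in replicates. It equals the strongest entries called on the pooled reads, so single summits in it can still rank unlike in replicates. CG1677 and sbb each held 14 IDR summits and kirre held 13, so that 41 of the 4351 IDR summits of the study lay in the 3 genes. In the dm6 assembly CG1677 (FBgn0029941) covers positions 7281089 to 7405797 of X on the minus strand, which is 124709 bp. The gene kirre (FBgn0028369) covers positions 2740384 to 3134532 of X on the plus strand, which is 394149 bp. The gene sbb (FBgn0285917) covers positions 18278198 to 18357296 of 2R on the minus strand, which is 79099 bp.

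The samples are 3 biological replicates of 1 group, with no group to compare them with. Each is chromatin of whole embryos of mixed sex, aged 0 to 24 h, of the strain AntP-MiMIC-GFP. In that line an intron of Antp carries an added eGFP exon, so that the gene makes an Antp-eGFP fusion protein, and the labels' description states that the pulldown used an antibody against GFP. Another label names Antp as the antibody, and the text here follows the former. Chromatin was sonicated to fragments of 200 to 800 bp. In pooled whole embryos of all stages, binding in many cells and strong binding in few cells cannot be told apart. Peaks from embryos without the tag were not analysed here. The files hold no read counts, so the depth of each replicate is unknown.

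Antp is a homeodomain transcription factor that specifies thoracic segments in the fly. Homeodomain proteins of its class recognise short sites with a TAAT core. The gene kirre (also called dumbfounded) encodes an immunoglobulin-domain adhesion protein of muscle founder cells, where it acts with its relative roughest (rst) to attract and fuse with myoblasts. The gene sbb (scribbler, also called brakeless) encodes a transcriptional corepressor that acts in patterning of the embryo, the wing and the eye. Fly genes often have long introns that hold both their own regulatory DNA and whole other genes, called nested genes.

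Sequences around 7 summits on X are given here because the positions described below turn on them. Each is the 101 bp of the plus strand centred on the summit, in the dm6 assembly. Capitals mark matches, on either strand, to the Hox core letters TAATTA or TAATTG or TAATGA or TAATGG, or to CGATA, the core letters bound by the insulator protein BEAF-32. Summits are numbered along each gene from its 5′ end. Summit 2 of CG1677 was the strongest of the 41, summit 8 lay upstream of brk, and summit 14 lay at the promoter of CG1677 itself. For kirre, summit 13 was its strongest, summit 2 lay at the promoter of Syx4, and summits 11 and 6 held matches to both kinds of letters.
CG1677 summit 2, chrX:7337021-7337121: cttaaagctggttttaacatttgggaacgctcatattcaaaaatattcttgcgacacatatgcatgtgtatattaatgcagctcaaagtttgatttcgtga
CG1677 summit 8, chrX:7307062-7307162: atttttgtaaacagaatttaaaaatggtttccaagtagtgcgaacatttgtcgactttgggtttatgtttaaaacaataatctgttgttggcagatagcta
CG1677 summit 14, chrX:7286198-7286298: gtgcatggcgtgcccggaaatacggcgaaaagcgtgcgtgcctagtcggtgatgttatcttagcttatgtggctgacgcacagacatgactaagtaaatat
kirre summit 13, chrX:3097158-3097258: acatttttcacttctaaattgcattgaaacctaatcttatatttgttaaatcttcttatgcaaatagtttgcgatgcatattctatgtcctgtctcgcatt
kirre summit 2, chrX:2744188-2744288: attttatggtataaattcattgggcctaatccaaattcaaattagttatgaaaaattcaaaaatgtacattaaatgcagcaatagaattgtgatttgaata
kirre summit 11, chrX:3068446-3068546: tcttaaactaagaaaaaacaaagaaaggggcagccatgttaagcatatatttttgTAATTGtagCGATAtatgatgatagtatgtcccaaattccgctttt
kirre summit 6, chrX:2985310-2985410: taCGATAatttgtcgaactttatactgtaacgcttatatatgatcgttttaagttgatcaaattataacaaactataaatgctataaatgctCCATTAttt
The strongest summit of either gene showed no match in this window. No match says only that these letters are absent from it.

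Per unit of length the 3 genes were unlike each other. Over the 6 main arms the IDR list held 3.25 summits per 100 kb. The density was 11.0 per 100 kb in CG1677, or 3.40 times that mean, and 17.3 per 100 kb in sbb, or 5.31 times that mean. In kirre it was 3.28 per 100 kb, or 1.01 times the mean. By arm, the list held 3.73 per 100 kb on X, above the density of kirre, and 3.11 per 100 kb on 2R. At the mean density the windows of CG1677, kirre and sbb would hold 4.12, 12.9 and 2.64 summits. The gene kirre therefore stood among the genes with the most summits at a density close to that of the genome. These values follow from the choice of the genes and carry no test. Of 13945 protein-coding genes on the 6 arms, 4186 (30.0%) held at least 1 IDR summit in span plus 1 kb.

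Genes just outside the choice were close behind. The gene ush, which encodes a cofactor of GATA factors, and Raf, a protein kinase of receptor tyrosine kinase signalling, also held 13 IDR summits and thus tied with kirre. Their spans were 64341 bp and 48405 bp. The transcriptional regulators shn and tara followed with 11 summits each, and the next 3 genes (CHES-1-like, Hr4 and Ptp61F) held 9 each. Without the added 1 kb, sbb and Raf lost 1 summit each and CG1677, kirre and ush lost none.

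**Figure D1:**
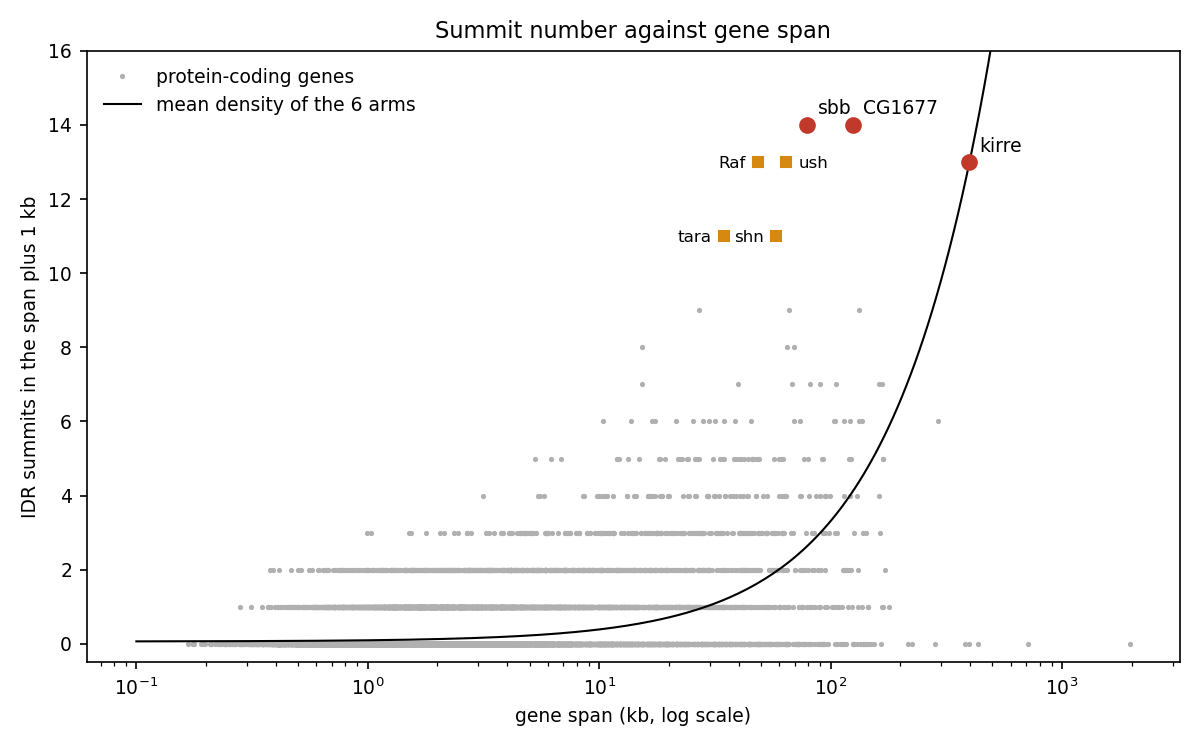
IDR summits in the span plus 1 kb (y axis) against gene span in kb (x axis, log scale) for 13945 protein-coding genes (grey points); the black line is the mean density of 3.25 summits per 100 kb. CG1677 and sbb (14 summits each) lie well above the line, and kirre (13 summits) lies on it, while Raf, ush, shn and tara (squares) have shorter spans.

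The replicates gave similar numbers. Each replicate list holds 30000 entries, and its 4351 strongest were taken to match the length of the IDR list. CG1677 held 16, 12 and 14 of these entries in replicates 1, 2 and 3, with a mean of 14.0 ± 2.00 (SD, n = 3). The counts for kirre were 13, 15 and 13, with a mean of 13.7 ± 1.15 (SD, n = 3). Those for sbb were 11, 11 and 12, with a mean of 11.3 ± 0.577 (SD, n = 3). The counts of CG1677 and kirre overlapped across replicates, while each count of sbb was at or below the lowest count of the other genes. Over all 30000 entries the 3 replicates gave 39, 42 and 38 for CG1677, 58, 70 and 74 for kirre, and 40, 46 and 46 for sbb.

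The pooled list, also of 30000 entries, was called on the reads of all replicates together, and the IDR list equals its 4351 strongest entries. CG1677 held 42 pooled entries (33.1 per 100 kb), kirre 73 (18.4 per 100 kb) and sbb 45 (55.5 per 100 kb), beside 22.4 per 100 kb over the 6 arms. In the full list kirre thus lay below the mean of the arms. The IDR summits made up 33.3% of the pooled entries in CG1677, 17.8% in kirre and 31.1% in sbb, beside 14.5% of all pooled entries. The shares of CG1677 and sbb were the higher ones. The genes were chosen by the IDR number in these shares, so the shares follow in part from the choice and carry no test.

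Single summits were found again in the replicates about as often as other IDR summits. Matched within 100 bp among the 4351 strongest entries of replicates 1, 2 and 3 were 13, 12 and 13 of the 14 summits of CG1677, 11, 13 and 12 of the 13 of kirre, and 10, 10 and 12 of the 14 of sbb. Over the 41 summits the matched share was 86.2% ± 3.73 (SD, n = 3), beside 83.9% ± 1.27 for all IDR summits. All 3 replicates matched 10 summits in CG1677, 10 in kirre and 7 in sbb. That is 27 of 41 (65.9%), beside 63.7% of all IDR summits. With all 30000 entries, 40 of 41 were matched in every replicate. The exception was summit 11 of kirre, whose nearest entry in replicate 1 lay 104 bp away. No position in the 3 genes was matched in the strongest entries of all 3 replicates without an IDR summit.

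**Figure D2:**
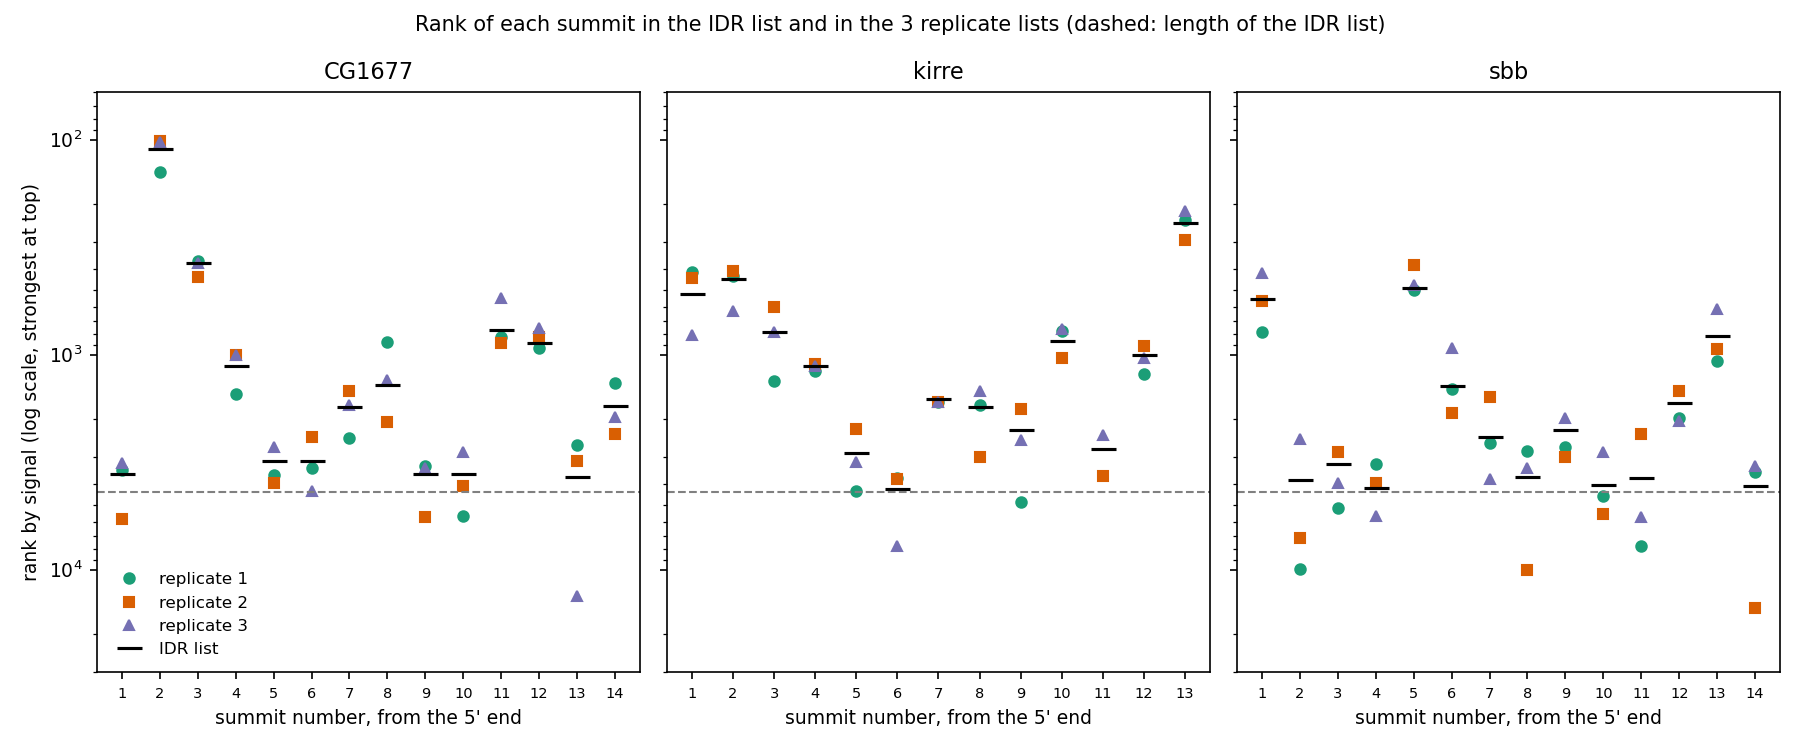
Rank by signal (y axis, log scale, strongest at the top) of each summit, numbered from the 5′ end of its gene (x axis), in the 3 replicate lists (coloured symbols) and in the IDR list (black bars). The dashed line marks rank 4351; the strongest summit of each gene has a rank of 500 or better in every replicate, and several of the weakest summits of sbb fall below the line in at least 1 replicate.

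The strength of the summits differed between the genes. The signal is the authors' own peak value and is used only within 1 list. Its median was 271 in kirre (range 106 to 599), 202 in CG1677 (117 to 830) and 145 in sbb (107 to 418), beside 172 over all IDR summits (103 to 4656). Among the 2175 strongest IDR summits were 9 of 13 in kirre, 8 of 14 in CG1677 and 5 of 14 in sbb. Among the 435 strongest were 2 of CG1677, 1 of kirre and 0 of sbb. Together, 22 of the 41 (53.7%) were among the 2175 strongest, and their median signal was 201.

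Most summits lay away from transcription start sites (TSS). Within 500 bp of an annotated TSS were 3 of 14 summits in CG1677 (21.4%), 2 of 13 in kirre (15.4%) and 2 of 14 in sbb (14.3%). Together this was 7 of 41, or 17.1% (95% exact binomial interval 7.15 to 32.1), beside 54.9% of all IDR summits. The interval treats the 41 summits as independent, which neighbours in 3 chosen genes are not, so it is too narrow. By replicate, the share among strong entries was 21.7% ± 3.14 in CG1677, 14.7% ± 1.18 in kirre and 20.7% ± 5.74 in sbb (SD, n = 3). The median distance to the nearest TSS was 928 bp in CG1677, 3691 bp in kirre and 9222 bp in sbb, beside 346 bp over all IDR summits. Of the sequence of the windows, 12.1% in CG1677, 8.10% in kirre and 15.2% in sbb lay within 500 bp of a TSS.

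Set against genes of similar span, the promoter shares of CG1677 and sbb were lower and did not pass the test. The genes were chosen by summit number, and whether the promoter share varies with that number was not tested. Summits of the 60 protein-coding genes of 0.8 to 1.2 times the span of CG1677 lay within 500 bp of a TSS in 35 of 113 cases (31.0%; odds ratio 0.608, Fisher's exact test, two-sided, p = 0.552, adjusted p = 0.552). For sbb the 117 comparison genes gave 58 of 209 (27.8%; odds ratio 0.434, Fisher's exact test, p = 0.362, adjusted p = 0.552). The comparison genes of kirre held no summit, so kirre could not be tested. Neighbouring summits share their gene and are not independent, which makes both p-values too small. The direction for CG1677 turned with a promoter defined as 1000 bp, which gave 50% beside 39.8%, and in summits matched without replicate 1, which gave 27.3% beside 25.3%.

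**Figure D3:**
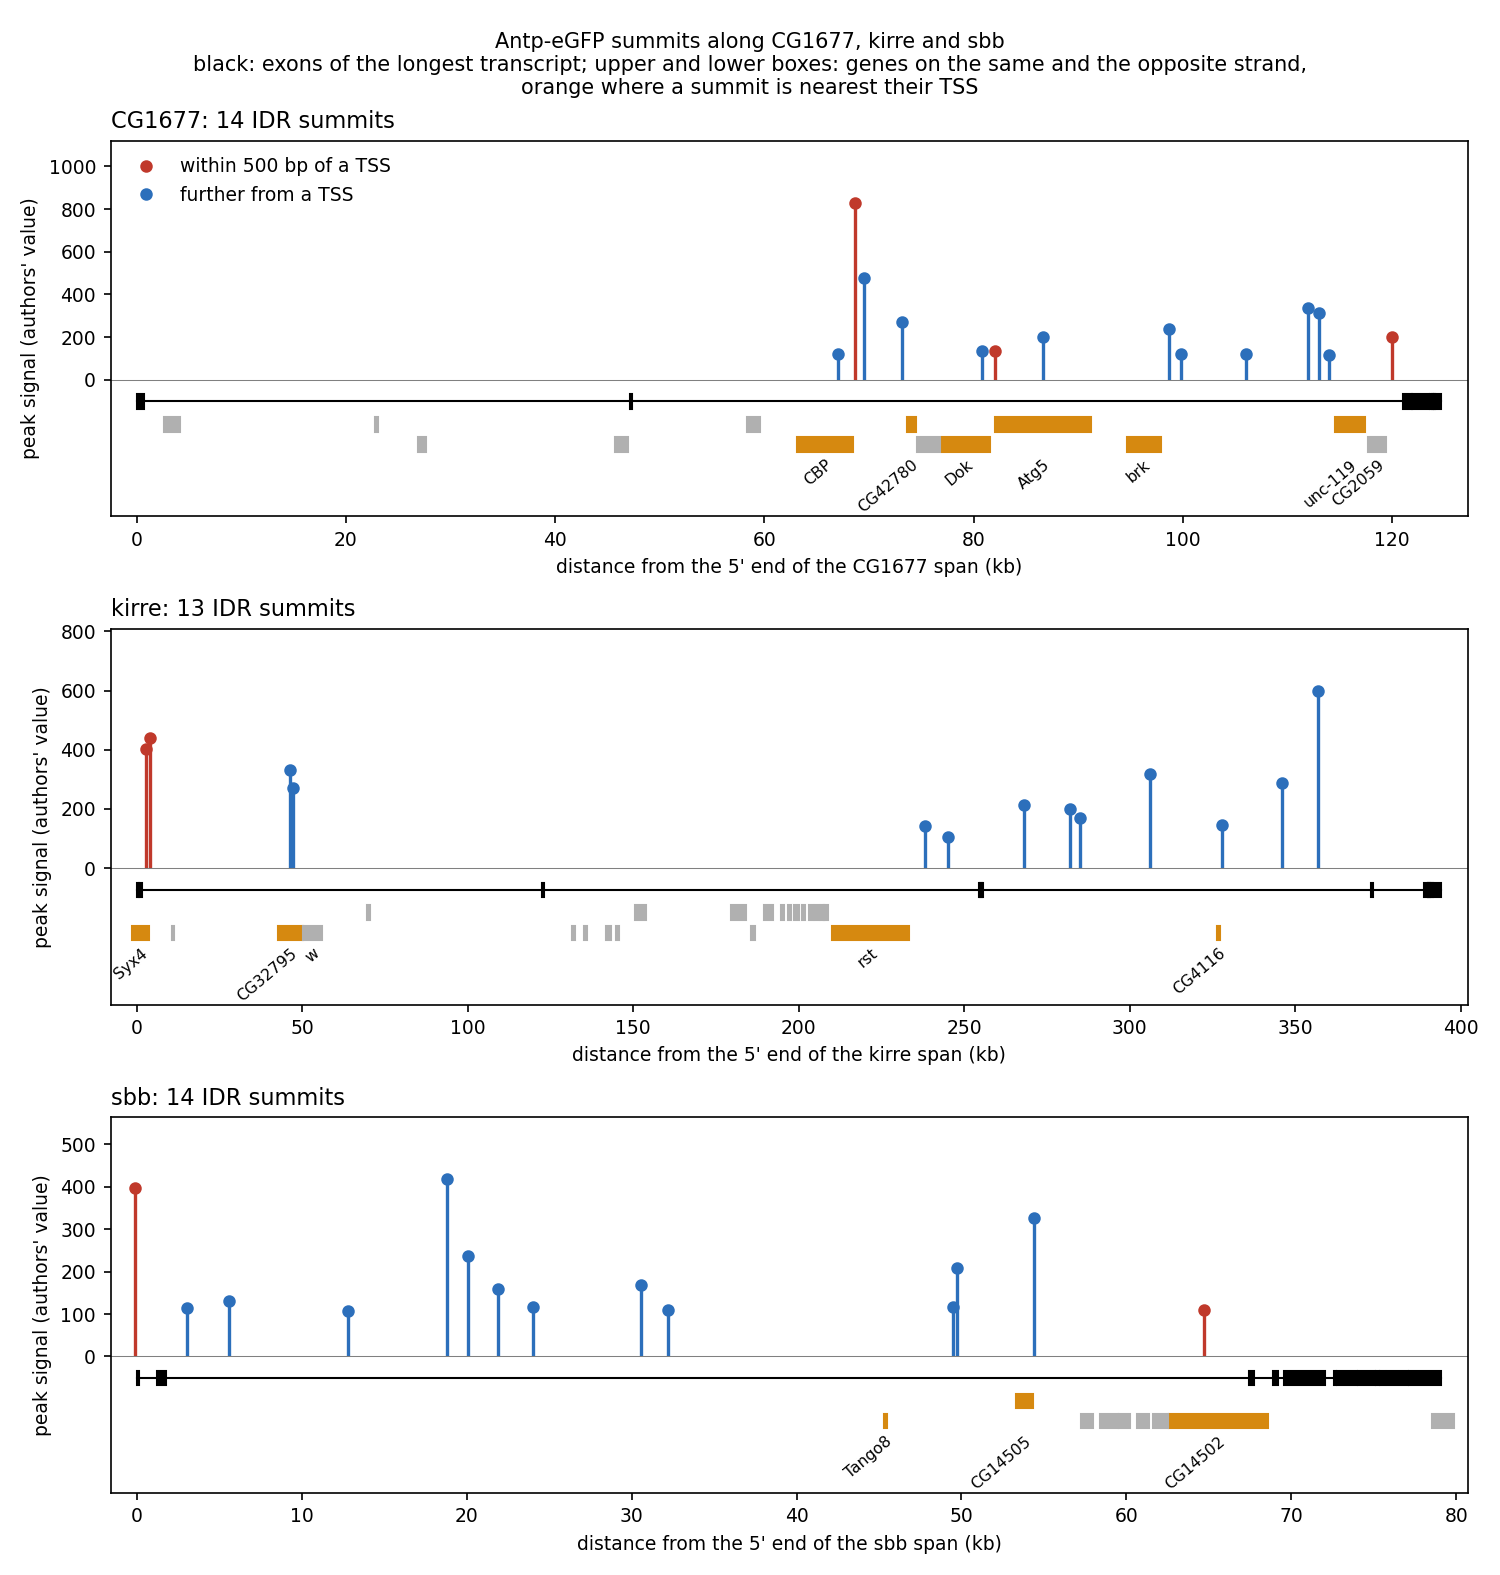
IDR summits as stems with the authors' peak signal (y axis) against distance in kb from the 5′ end of each gene span (x axis), red within 500 bp of a TSS and blue further away. Black boxes are exons of the longest transcript, and boxes below are overlapping genes on the same (upper) and opposite (lower) strand, orange where a summit is nearest their TSS; all 14 summits of CG1677 fall in its intron 2, and a stretch of 191 kb in kirre holds none.

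In CG1677 every summit lay in a single intron. Intron 2 of its longest transcript is 73902 bp long, 59.3% of the span, and held all 14 summits, while intron 1, with 46457 bp and 37.3% of the span, held 0. The long span rests on that transcript alone. The other 3 annotated transcripts span at most 5107 bp at the 3′ side, a stretch that with 1 kb on either side held 1 summit. The transcript lies within a longer noncoding RNA on the same strand, lncRNA:CR44357. The 67.0 kb next to the 5′ end, 53.7% of the span, held no IDR summit. That stretch contains the genes CG15034, CG1999, CheA7a, CG42781 and CG15035, and the best of its 7 pooled entries had rank 13833. In the replicate lists its best ranks were 9380, 10475 and 11186.

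The summits of CG1677 were set mainly beside its nested genes. CG1677 contains 13 protein-coding genes, 7 of them on the opposite strand. The nearest TSS was that of a nested gene for 13 summits and that of CG1677 for 1. By nearest TSS, 4 summits belonged to unc-119, 3 to CBP, 2 each to brk and Atg5, and 1 each to Dok and CG42780. Of the nested genes, 4 (CBP, Atg5, Dok and CG2059) had a summit within 500 bp of a TSS. Summit 6 was counted for both Atg5 and Dok, and summit 14 for both CG2059 and CG1677. Only 3 summits lay inside the body of a nested protein-coding gene, namely CBP, Dok and Atg5.

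The strongest sites of CG1677 lay upstream of CBP, which encodes a calcium-binding protein and is not the acetyltransferase gene nejire. Summit 2, at position 7337071, had a signal of 830 and rank 111, 281 bp upstream of the CBP TSS. Its ranks in replicates 1, 2 and 3 were 141, 101 and 102. Summit 3, 1030 bp upstream of the same TSS, had a signal of 479 and replicate ranks of 365, 437 and 375. Both kept the same order in every replicate. Summit 1, inside CBP and 1068 bp downstream of another TSS of that gene, was much weaker, with a signal of 120 and replicate ranks of 3428, 5789 and 3200.

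Upstream of unc-119, whose protein carries lipid-modified cargo, lay summits 11, 12 and 13, at 2475, 1961 and 710 bp from the TSS. Summit 11 had a signal of 336 and replicate ranks of 829, 882 and 544. Summit 12 had a signal of 312 and replicate ranks of 929, 828 and 751. Summit 13, the nearest to the gene, was the weakest of the 14, with a signal of 117. It ranked 2627 and 3127 in replicates 1 and 2 but 13305 in replicate 3. Summit 10, 8188 bp upstream, had a signal of 121 and replicate ranks of 5622, 4081 and 2830.

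The repressor gene brk, which limits the targets of the growth factor Dpp, had summits 8 and 9 upstream, at 827 and 1956 bp. Summit 8 had a signal of 236 and replicate ranks of 877, 2057 and 1312. Summit 9 had a signal of 120 and replicate ranks of 3287, 5692 and 3354. Each replicate placed summit 8 above summit 9. Around Atg5, which encodes a protein of the autophagy conjugation system, summit 6 lay 20 bp from the TSS with a signal of 135. Summit 7 lay inside the gene, 4528 bp downstream of the TSS, with a signal of 201. Inside Dok, which encodes an adaptor protein of tyrosine kinase signalling, summit 5 had a signal of 133. It lay 797 bp from the nearest Dok TSS. Summit 4, 537 bp upstream of CG42780, had a signal of 271 and replicate ranks of 1516, 998 and 1000.

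The single summit at a promoter of CG1677 was summit 14, 53 bp upstream of the TSS shared by its short transcripts. Its signal was 203, and its replicate ranks were 1353, 2334 and 1938. It also lies within 500 bp of the divergent gene CG2059, so the 2 promoters cannot be told apart by position. No summit lay near the 5′ end of the long transcript.

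In kirre the summits fell into separate stretches. Most of its length is in 3 introns. Intron 2 (121519 bp) held 4 summits, intron 3 (132044 bp) held 2 and intron 5 (117679 bp) held 7. Intron 6, of 16029 bp, held 0. Divided into 5 equal stretches of 78.8 kb from the 5′ end, the span held 4, 0, 0, 6 and 3 summits. Between summits 4 and 5 lay 191 kb without an IDR summit, 48.4% of the span. This stretch holds 19 annotated genes, among them the eye pigment transporter gene white (w) and rst. Its 15 pooled entries had a best rank of 5731, and the best ranks in the replicates were 4850, 4704 and 5169, all below the 4351 strongest.

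The transcripts of kirre differ in the summits they span. The 3 longest transcripts span all 13. The transcript that starts at position 2989051 spans 143741 bp and held 7. The other 3, which start at position 3099550 or further 3′, held 0. No summit lay within 500 bp of a kirre TSS. By nearest TSS, 6 summits belonged to kirre, 5 to nested genes and 2 to Syx4, which overlaps the 5′ end of kirre on the opposite strand.

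The strongest site of kirre lay towards its 3′ side. Summit 13, at position 3097208, had a signal of 599 and rank 244, and replicate ranks of 236, 293 and 215. It lay 2342 bp upstream of the kirre TSS at 3099550, where a shorter transcript begins. Summit 12, 13510 bp upstream of that TSS, had a signal of 289 and replicate ranks of 1231, 912 and 1032. Summit 10 had a signal of 319 and replicate ranks of 778, 1034 and 757, and its nearest TSS, of CG4116, was 21334 bp away. These 3 were within intron 5 and among the stronger sites in every replicate.

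Also in intron 5, summits 7, 8 and 9 lay between 18934 and 36661 bp downstream of the TSS at 2989051. Summit 7 had a signal of 214 and the steadiest replicate ranks of the 3, at 1660, 1658 and 1654. Summit 8 had a signal of 201 and replicate ranks of 1722, 2985 and 1467. Summit 9 had a signal of 168 and replicate ranks of 4846, 1784 and 2489, so that replicate 1 placed it outside its 4351 strongest. Summit 11, 934 bp upstream of CG4116, had a signal of 146.

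At the 5′ end of kirre, summits 1 and 2 had signals of 404 and 441. They lay 346 bp and 162 bp from TSSs of Syx4, which encodes a syntaxin of membrane fusion, and were the only promoter summits in the window. Summit 1 ranked 411, 441 and 809 in the replicates, and summit 2 ranked 432, 410 and 626. Replicate 3 was the lowest for both. Summits 3 and 4 lay inside CG32795, just beyond the 3′ end of white, with signals of 333 and 271. Summit 3 ranked 1331, 602 and 781 in the replicates, and summit 4 ranked 1187, 1100 and 1124.

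The relative of kirre, rst, is itself nested in intron 3 and held no summit in its span plus 1 kb in the IDR list. It also held none of the 4351 strongest entries of any replicate. The nearest was summit 5, 4440 bp upstream of its TSS, with a signal of 142 and replicate ranks of 4291, 2224 and 3160. Summit 6, 3691 bp upstream of the kirre TSS at 2989051, was the weakest of kirre, with a signal of 106 and replicate ranks of 3750, 3780 and 7779.

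In sbb the summits spread along a single intron. Intron 2 of its longest transcript covers 65649 bp, 83.0% of the span, and held 13 of 14 summits. The remaining summit lay 115 bp upstream of the 5′ end. The 5 transcripts that start there held all 14 summits in their span plus 1 kb, and the 2 short transcripts at the 3′ side, of 9697 and 3638 bp, held 0. Divided into 5 equal stretches of 15.8 kb from the 5′ end, the span held 3, 5, 1, 3 and 1 summits. The longest stretch without one was 17.4 kb, or 22.0% of the span, around Tango8. Its 6 pooled entries had a best rank of 9451.

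The promoter of sbb carried 1 of its stronger sites. Summit 1, at position 18357411, had a signal of 397 and rank 553, with replicate ranks of 780, 564 and 416. The strongest, summit 5, lay 18796 bp downstream of the same TSS. It had a signal of 418 and rank 489, and replicate ranks of 500, 383 and 473. Replicate 3 placed summit 1 above summit 5, and the other replicates placed summit 5 higher. Summit 6, a little over 1 kb further into the intron, had a signal of 236 and replicate ranks of 1441, 1868 and 934.

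Further into the intron of sbb, summit 13 had a signal of 326 and replicate ranks of 1070, 943 and 615. It lay close to the 3′ end of the nested gene CG14505. Summits 11 and 12 lay 202 bp apart, with signals of 116 and 208. That distance is within the length of the sonicated fragments. Summit 14, with a signal of 109, lay in the 5′ UTR of the nested gene CG14502, 302 bp from its TSS. Its replicate ranks were 3503, 15079 and 3291. The other 7 summits had signals of 107 to 168.

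Nested genes were placed otherwise in sbb than in CG1677. The sbb span contains 8 protein-coding genes, 7 of them on the opposite strand. By nearest TSS, 7 summits belonged to sbb, 3 to CG14505, 3 to Tango8 and 1 to CG14502. The summits assigned to Tango8 lay 13309 to 21470 bp from its TSS, further than its own span. The genes CG18536 to CG18540, set side by side in the intron, had no summit nearest to them. Of the genes at the ends, pen-2, which encodes a gamma-secretase subunit and overlaps the 3′ end of sbb, had none either.

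Summits of CG1677 and sbb stood closer together than those of kirre. The median gap between neighbouring summits was 3594 bp in CG1677, 3168 bp in sbb and 16084 bp in kirre, beside 10718 bp over the 6 arms. Over the 6 arms, 732 of 4345 gaps between neighbouring summits were under 2 kb. Gaps under 2 kb were 6 of 13 in CG1677, 4 of 13 in sbb and 2 of 12 in kirre. These gaps follow from the summit number and the span, so they describe the genes that were chosen.

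Among genes of similar span, CG1677 and sbb stood at the top of the distribution by summit number, the measure they were chosen by. Of the 60 comparison genes of CG1677, 38 (63.3%) held an IDR summit. Their median was 1.00 and their maximum 9, and 0 held 14 or more. Of the 117 comparison genes of sbb, 68 (58.1%) held a summit. Their median was 1.00 and their maximum 13, and 0 held 14 or more. By density, none of the former reached CG1677 (maximum 6.68 per 100 kb), and 1 of the latter, ush with 19.6 per 100 kb, exceeded sbb. In each replicate's strongest entries, 0 of the 60 held as many as CG1677, and 1 of the 117 held as many as sbb. That gene was again ush, with 12, 14 and 17 entries beside 11, 11 and 12 for sbb. The IDR list came from these same replicates, so the replicate counts carry the choice of the genes too.

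The comparison genes with the most summits named the nearest neighbours in number. For CG1677 these were Ptp61F with 9, a tyrosine phosphatase gene, CG43658 with 7, and Antp itself with 6, level with 5 further genes. For sbb they were ush with 13, the nuclear receptor gene Hr4 with 9, and the kinase gene Tlk with 8. Most like CG1677 by the summed difference of summit numbers over 5 lists were Ptp61F (28) and Eip75B (35), and most like sbb were ush (11) and Hr4 (18). The longest comparison genes without a summit were Gprk1 (148766 bp) for CG1677 and l(2)41Ab (94544 bp) for sbb. They start at positions 4322295 and 1349392 of 2R, an arm of 25286936 bp. Comparison genes were matched by span and not by position on the arm, and whether position bears on their counts was not tested. Genes of similar span thus ranged from 0 summits upwards.

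Only 3 genes, CG17684, DIP-lambda and lovit, have spans of 0.8 to 1.2 times that of kirre, and 0 of them (0%) held an IDR summit or a strong replicate entry. Within 0.5 to 2 times its span there are 8 genes. Of these, Ten-a, which encodes a teneurin and spans 291517 bp, held 6 summits, and Pzl, Snap25, bru3, l(3)80Fg and the 3 above held 0. CG17684 and DIP-lambda lie within the first 2262115 bp of 2R, and Pzl starts at position 2554162 of 3R. Snap25, lovit and l(3)80Fg start at positions 24074180, 25236940 and 25798441 of 3L, an arm of 28110227 bp. The gene bru3, also without a summit, starts at position 13521907 of 3L, away from both ends of the arm. Whether position on an arm bears on these counts was not tested. With so few genes of its length, the place of kirre among them is poorly known.

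**Figure D4:**
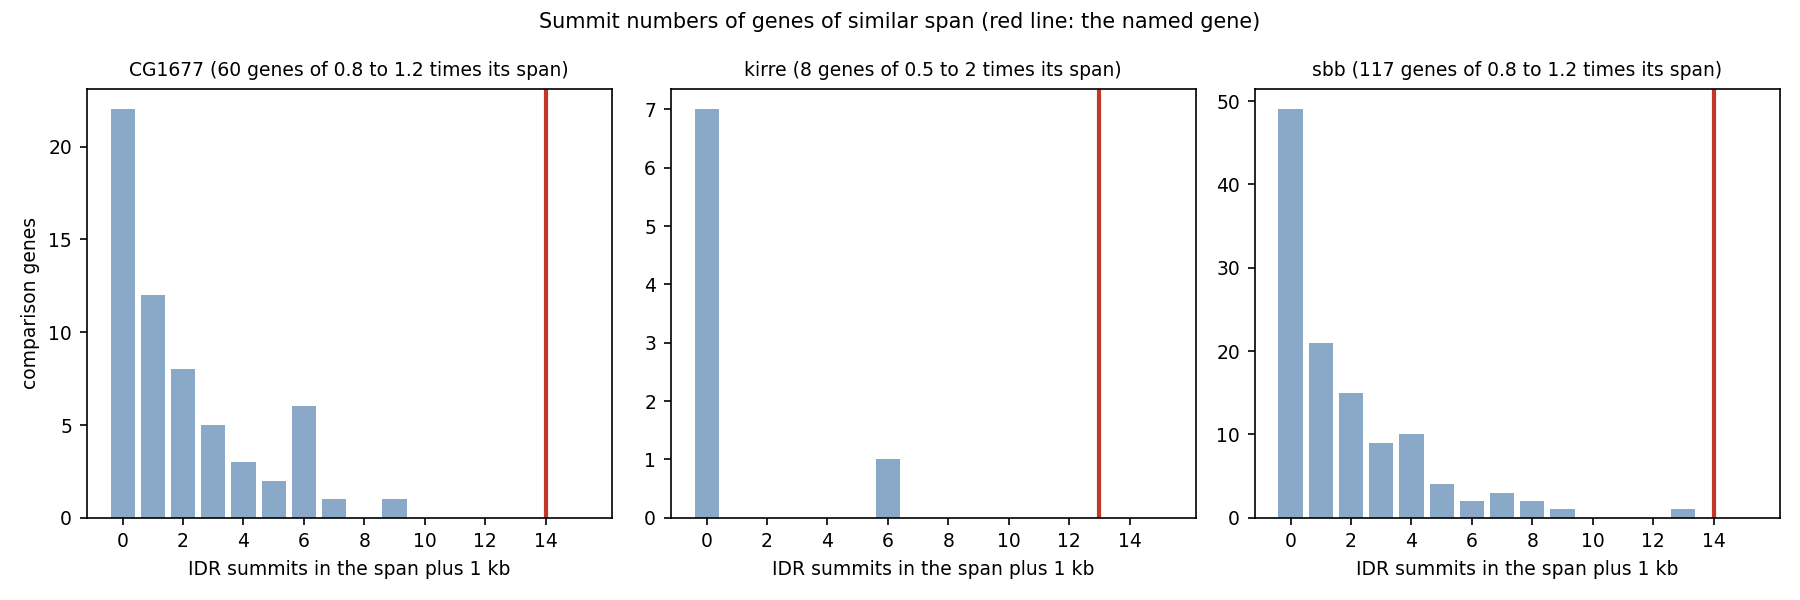
Number of comparison genes (y axis) by IDR summits in the span plus 1 kb (x axis), for genes of 0.8 to 1.2 times the span of CG1677 (60 genes) and of sbb (117 genes) and of 0.5 to 2 times the span of kirre (8 genes). The red line marks the named gene, which lies to the right of every bar in each panel. Closest is sbb, with ush at 13. Genes were not matched by position on the arm.

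Other genes of myoblast fusion and muscle formation gave a mixed picture. Of 19 distinct genes listed beside kirre, 9 (47.4%) held an IDR summit, beside 30.0% of all protein-coding genes, and their median summit number was 0, as over all protein-coding genes. Their median span, however, was 8593 bp beside 2166 bp. The transcription factor gene Mef2, of muscle differentiation, held 6 summits with a highest signal of 484, and rols, which encodes a scaffold protein of the fusion site, held 5 with a highest signal of 222. The gene mbc, which encodes an activator of Rac, held 4 with a highest signal of 473. That strongest summit lay 12 bp from the TSS of Nup98-96. The gene siz, which encodes an exchange factor for Arf, held 2, with a highest signal of 143. The actin regulators WASp and Vrp1 held 1 each, with signals of 222 and 126.

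The integrin genes if and mys held 4 and 1 summits, with highest signals of 345 and 350. The strongest of if lay 50 bp from the TSS of goe. Hem, a member of the SCAR complex, held 1 with a signal of 264, 117 bp from the TSS of IleRS. None was found for the adhesion genes rst, sns and hbs. The spans of sns and hbs are 57603 and 30739 bp, so that both are long genes without a summit. The others without one were blow, SCAR, Rac1, Rac2, lmd, Arf6 and Ced-12. Among the strongest entries of single replicates, Rac1 held 2 in replicate 2 and Rac2 held 1 in replicate 3.

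Of 14 genes listed as partners or targets of sbb, 5 (35.7%) held a summit, beside the 30.0% of all protein-coding genes. Their median span was 3375 bp, beside 2166 bp for all protein-coding genes. The strongest summits were at Mad and Gug. Mad, a transducer of Dpp signalling, held 1 of signal 699. Gug, the corepressor gene also called Atrophin, held 2 with a highest signal of 657. The receptor gene tkv held 3 with a highest signal of 119, and the histone methyltransferase gene E(z) held 1 with a signal of 226. The gene brk held 1, which is summit 8 of CG1677. The other 9, among them Dll (20846 bp) and run (6652 bp) as the longest, held none.

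Sequence around the summits of CG1677 and kirre had a lower GC content than that of IDR summits in general. In windows of 201 bp the median GC content was 33.1% in CG1677, 32.3% in kirre and 37.8% in sbb, beside 38.3% over all IDR summits. Of the 41 summits 34 lay over 500 bp from a TSS, beside 1961 of all 4351. GC content was not compared within that class. Hox core letters (TAATTA or TAATTG or TAATGA or TAATGG, either strand) were found in 3 of 14, 5 of 13 and 7 of 14 windows. This is 15 of 41 (36.6%), beside 40.3% of all IDR windows and 32.9% of windows centred on coding TSSs. Over 500 bp from a TSS, Hox core letters were in 13 of 34 windows (38.2%), beside 42.9% of all such IDR windows. GAGAG, the letters of the GAGA factor, was found in 4 of 41 (9.76%), beside 25.1% of all IDR windows and 25.0% of TSS windows. Among windows over 500 bp from a TSS it was in 3 of 34 (8.82%), beside 26.8% of all such IDR windows.

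Of the other letters searched, those of the DRE, Ohler1 and Zelda were not found in the 41 windows, and CGATA was found in some. The DRE (TATCGATA), the element bound by DREF, was in 0 of 41, beside 4.80% of all IDR windows and 6.45% of TSS windows. Ohler1 letters (GGTCACAC) were in 0, beside 2.80% and 5.68%, and Zelda letters (CAGGTAG) in 0, beside 1.08% of each. In windows away from a TSS the DRE and Ohler1 shares of all IDR summits were 0.408% and 0.510%, so few matches could fall in 34 such windows. CGATA was in 8 of 41 (19.5%), beside 33.2% of all IDR windows and 37.1% of TSS windows, and it also occurs inside the DRE. In windows over 500 bp from a TSS it was in 6 of 34 (17.6%), beside 22.6% of all such IDR windows. The windows are few and lie in 3 genes, and letters in a window are not evidence of binding.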

How the data were processed

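Chromatin immunoprecipitation with sequencing was done on embryos that make Antp-eGFP, in 3 biological replicates. Per the authors' file descriptions, lists of 30000 entries were called against a control in each replicate and on the pooled reads, and the IDR list came from these. Aligner, peak caller and threshold of the IDR step are not given in the sources. The deposited signal is the peak caller's own value for a peak and served only within a list. The lists hold no counts, so depth is unknown, and binomial intervals cover counting error only. Replicate SDs measure the spread between these 3 samples.

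Summits of the dm6 lists were placed on Ensembl release 115 gene models and the RefSeq release of the same assembly, from which the sequences come, with coordinates counted from 1. The dm3 lists were not used here. Transposable elements were left out of genes and TSSs. Comparison genes were protein-coding, of 0.8 to 1.2 times a gene's span, and overlapped none of the 3 genes. Named genes were the 3 genes, the next in number to rank 7, overlapping genes with a summit within 500 bp of their TSS, the comparison genes with the most and the most similar numbers, and listed pathway genes with a summit or the longest without. Other nested, neighbouring and comparison genes were named after their values were seen. In the pathway list 2 symbols stood for lmd, which was counted once. Motif shares were set beside windows centred on TSSs of protein-coding genes, in place of a promoter table. Fisher's exact test was adjusted by the Benjamini-Hochberg method over the 2 genes that could be tested. The genes, lists and tests were chosen with earlier results of these data known. Python 3.11.15, pandas 2.3.3, NumPy 2.4.6 and SciPy 1.17.1 were used, and the steps were tested on simulated data. Alternatives were other span extensions, promoter distances, match rules, comparison ranges, the 2175 strongest peaks, and each replicate left out.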

Additional observations from a re-analysis of the deposited data

How the results depend on the processing

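Of 117 alternatives over 12 results, 102 left the result much the same, 13 moved it and 2 reversed it. With the 2175 strongest peaks alone, CG1677 held 8 summits and sbb 5, and 4 comparison genes held at least as many as sbb. With no extension of the span, and with 5 kb, that number was 1 for sbb. With all entries of each replicate, 14 summits of sbb were matched in all 3. Requiring a match in both remaining replicates left sbb with 8 to 9 summits when 1 replicate was left out, and 1 to 2 comparison genes then held at least as many. The promoter share of CG1677 turned from below to above that of its comparison genes within 1000 bp of a TSS (50%) and without replicate 1 (27.3%), with a range of 25 to 27.3% over the replicates left out. Without its longest transcript, an alternative chosen after seeing the data, CG1677 held 1 summit.

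No paired analysis was possible because the samples form 1 group. The limits are the lack of read counts, of a comparison group and of untagged embryos here, and the small number of genes as long as kirre. Comparison genes were also not matched by position on the arm.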

Other observations

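Below the IDR threshold the 3 genes held further pooled entries. In the next 4351 ranks of the pooled list lay 8 entries of CG1677, 11 of kirre and 7 of sbb. The strongest of these had signals of 99.2 in CG1677 (position 7301931, rank 4578), 101 in kirre (position 3018820, rank 4492) and 91.6 in sbb (position 18277228, rank 5040). The weakest IDR summits of the same genes had signals of 117, 106 and 107. Among the 4351 strongest entries of single replicates, those with no IDR summit within 100 bp numbered 3, 0 and 1 in CG1677, 2, 2 and 1 in kirre, and 1, 1 and 0 in sbb, for replicates 1, 2 and 3.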
